A study of Mus musculus with 6 samples.

Results

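The genes described here are glycolytic enzymes, glucose and lactate carriers and genes of the hypoxia-inducible factor (HIF) pathway, measured in mouse B lymphoma cells with and without a hairpin against Dhx9. The members are a list of 39 gene symbols named for their roles, drawn up with earlier results of these data known, and 35 of them had a named probe set among the 18784 genes tested. The other members, Gpi1, Gapdh, Pgam1 and Eno1, were not analysed here. The probe set of Ero1l carries that gene's current symbol, Ero1a.

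The 6 arrays came from cultured Arf-/-Eu-myc/Bcl-2 lymphoma cells, so both groups lack the tumour suppressor Arf and carry a MYC transgene driven by an immunoglobulin enhancer together with Bcl-2. Both groups were kept on irradiated Arf-/- mouse embryonic fibroblasts. One group of 3 arrays carried the control hairpin Rluc.713, named for Renilla luciferase, and the other group of 3 carried Dhx9.1241, named for the RNA and DNA helicase gene Dhx9. The labels name neither a drug nor a low-oxygen treatment, nor do they tell if each array had a culture of its own. The p-values thus reflect array-to-array spread alone, part of which may be technical.

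Glycolysis splits glucose into pyruvate in the cytosol, and lactate dehydrogenase can then turn pyruvate into lactate, which leaves the cell through monocarboxylate carriers. HIF is a transcription factor whose alpha subunits are hydroxylated by oxygen-dependent enzymes and then marked for destruction by the VHL protein. When oxygen is short the alpha subunit persists and raises many genes of glycolysis, blood vessel growth and collagen modification. MYC also acts on many genes of glycolysis, and rapidly dividing B lymphoma cells are known for high glucose use.

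HIF binds a core motif spelled ACGTG or GCGTG, and MYC binds the E-box CACGTG, which holds ACGTG on both strands. Both strands of the 250 bases before each start site were searched in the RefSeq table of build GRCm38.p6, which held 48 start sites for 33 of the 35 members; Slc2a3 and Epas1 had no entry. At least 1 core motif stood before a start of 30 of these 33 members (90.9%), against 49.9% of the 15060 array genes with an entry. ACGTG was found for 22 members (66.7%, against 21.0% of array genes), GCGTG for 20 (60.6%, against 39.4%) and CACGTG for 6 (18.2%, against 8.11%). Counted by start site, 75.0% of the members' starts held a core motif, against 38.6% of all 32851 starts in the table, noncoding genes included. The list was drawn up in part from known HIF genes, and base composition was not matched. The 4 windows printed here, 5′ to 3′, belong to members that differ in their readout between the hairpins: Pdk3 and P4ha1 were higher in the mean in Dhx9.1241, Ero1l lower, and Ldha had a difference of 0.00 on the log2 scale. Capitals mark the core motifs, as ACGTG or GCGTG or their reverse complements CACGT and CACGC. Of the 2 starts listed for Ldha, the upstream one is shown.
Ldha (chr7:46845554-46845803, plus strand): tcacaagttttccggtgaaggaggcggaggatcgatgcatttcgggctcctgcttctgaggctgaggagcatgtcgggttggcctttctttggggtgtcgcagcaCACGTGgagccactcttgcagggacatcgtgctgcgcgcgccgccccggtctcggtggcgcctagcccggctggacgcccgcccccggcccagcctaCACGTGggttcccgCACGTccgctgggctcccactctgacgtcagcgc
Pdk3 (chrX:93832151-93832400, minus strand): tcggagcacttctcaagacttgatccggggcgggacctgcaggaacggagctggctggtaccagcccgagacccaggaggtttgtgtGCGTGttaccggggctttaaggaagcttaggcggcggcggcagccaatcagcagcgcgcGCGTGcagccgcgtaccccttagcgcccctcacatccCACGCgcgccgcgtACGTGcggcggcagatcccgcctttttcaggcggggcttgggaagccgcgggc
P4ha1 (chr10:59323046-59323295, plus strand): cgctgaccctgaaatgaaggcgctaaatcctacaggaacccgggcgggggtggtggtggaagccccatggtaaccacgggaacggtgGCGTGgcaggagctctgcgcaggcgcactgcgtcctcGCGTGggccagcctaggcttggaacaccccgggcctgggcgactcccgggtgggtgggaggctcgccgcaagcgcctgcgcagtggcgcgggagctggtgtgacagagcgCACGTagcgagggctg
Ero1l (chr14:45318573-45318822, minus strand): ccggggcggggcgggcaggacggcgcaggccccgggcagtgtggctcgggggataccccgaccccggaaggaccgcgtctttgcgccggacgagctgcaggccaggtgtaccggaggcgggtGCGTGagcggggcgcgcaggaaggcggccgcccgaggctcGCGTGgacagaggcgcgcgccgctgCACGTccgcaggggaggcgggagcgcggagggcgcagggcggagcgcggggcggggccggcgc

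The Ldha window holds the motif in 3 places, of which 2 are the full E-box CACGTG. The Pdk3 window holds it in 4 places, the P4ha1 window in 3 and the Ero1l window in 3. These windows were chosen for their readout, and none of the 4 members was called. Vegfa (log2 change -0.21), Pdk1 and Egln1 also had an unadjusted limma p under 0.05, and their windows are not printed. Vegfa held the motif in 0 places before its upstream start and in 2 before the other. Pdk1 held it in 1 place before its upstream start and in 0 before the other, and Egln1 in 2. Over all members with an entry, the 30 with a core motif had a median log2 change of 0.03. Of these, 18 were positive as rounded here, Ldha at 0.00 not being counted. The 3 without one, Tpi1, Eno2 and Vhl, had a median of -0.04 with 0 positive. A group of 3 is too small for the 2 medians to be compared. A match of letters is not a measured binding site.

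The targeted gene checks the labels. Dhx9 (probe set 13211_at) stood at 12.40, 12.48 and 12.36 on the log2 scale on the Rluc.713 arrays and at 11.46, 11.43 and 11.38 on the Dhx9.1241 arrays. Sample titles name Dhx29 instead, whose log2 change was 0.04 (interval -0.08 to 0.17, adjusted p = 0.857), so the arrays are called by their hairpin. B cell markers (9 of 10 measured) had a mean log2 level of 12.54 to 12.64 on the Rluc.713 arrays and 12.51 to 12.59 on the Dhx9.1241 arrays. The corresponding ranges were 8.55 to 8.72 and 8.56 to 8.58 for 15 markers of fibroblasts, of which the feeder layer consists, and 7.28 to 7.37 and 7.35 to 7.36 for 9 T and NK cell markers; no gene of these 3 lists was called. Of the B cell markers, 8 of 9 were lower in the mean, and the groups did not overlap for 55.6% of them, 4 below and 1 above. That share was 20.1% of all genes and 31.5% of genes at or above the median level, where all 9 lay. The 1 above was Ms4a1, which had the largest change of the list (0.31, limma adjusted p = 0.0717). Of 11 myeloid markers, 10 were lower in the mean in Dhx9.1241. The limma test called 4 of the 11 lower, beside 1.07% of all genes, Lyz2 the most (log2 change -1.31). Itgam was higher without overlap (0.21, interval 0.06 to 0.35) and was not called. The mean level of the 11 was 8.33 to 8.38 with Rluc.713 and 8.09 to 8.12 with Dhx9.1241. The part of these marker differences in the members' values was not tested. In a bulk sample, fewer cells of a type and less RNA per cell cannot be told apart.

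No member was called at an adjusted p under 0.05, in either direction, by the limma test of Dhx9.1241 against Rluc.713. Among all genes, 2.07% were called higher and 1.07% lower, together 3.14%. At an unadjusted p under 0.05 there were 6 members (17.1%), 3 higher and 3 lower, against 14.1% of all genes. The hairpin groups did not overlap for 10 members (28.6%), 6 above and 4 below the controls, against 20.1% of all genes. The median log2 change of the members was 0.012, with 20 of 35 positive, against a median of 0.005 and 52.5% positive over all genes. Changes in the mean above 1.1-fold were seen for 6 members (17.1%) and for 15.4% of all genes.

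The precision of the 6 arrays bounds what could have gone unseen. The 95% intervals of the 35 log2 changes all lay between -0.35 and 0.38, so the widest reached a 1.30-fold difference, each interval being taken on its own. For 32 of the 35 members the interval stayed within a 1.25-fold difference. Intervals reached a median of 0.13 to either side of the change for the members and 0.14 over all genes. These bounds hold for the deposited values as they stand, and RMA is known to compress the folds of dim probe sets. Car9, Ldhb, Hk1, P4ha2, Egln3, Eno2 and Epas1 were the lowest in level, at percentiles 28.2 to 35.9 of all genes. Whether they stood above background was not tested.

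**Figure D1:**
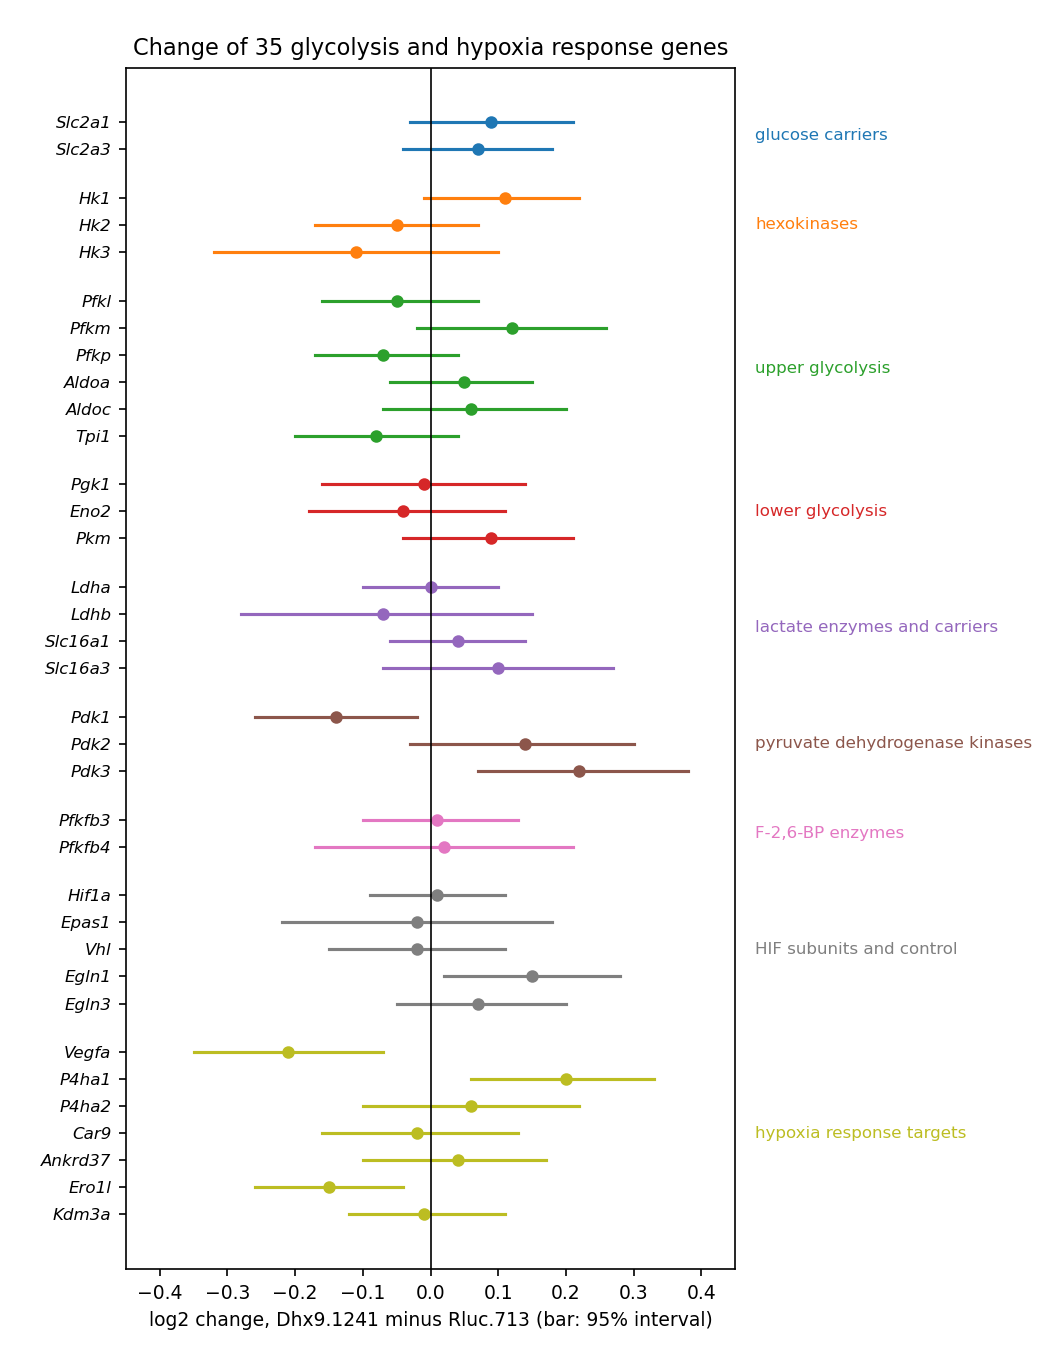
Log2 change (Dhx9.1241 minus Rluc.713) of each of the 35 members on the horizontal axis, with its 95% interval from limma as a bar (3 arrays per group), coloured by role. All intervals lie between -0.35 and 0.38, and those of Pdk1, Pdk3, Egln1, Vegfa, P4ha1 and Ero1l leave out 0.

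Glucose enters cells through facilitative carriers, and both carriers measured were slightly higher in the mean. Slc2a1, which encodes GLUT1, the carrier of most dividing cells, stood at 12.09, 12.16 and 12.12 on the Rluc.713 arrays and at 12.21, 12.28 and 12.15 on the Dhx9.1241 arrays, so the lowest Dhx9.1241 array overlapped the controls. The difference was 0.09 on the log2 scale (interval -0.03 to 0.21, adjusted p = 0.583). Slc2a3, the gene of the high-affinity carrier GLUT3, had a change of 0.07 with groups that did not overlap (adjusted p = 0.675).

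The hexokinases, which trap glucose as glucose 6-phosphate, held no member that passed. Hk3 had the largest change of the 3, at 8.34, 7.96 and 8.16 with Rluc.713 and 7.97, 8.09 and 8.07 with Dhx9.1241. The control arrays of Hk3 spread over the whole range of the other group, and its change of -0.11 (interval -0.32 to 0.10) had an adjusted p of 0.744. Hk1, the widely expressed form, was higher on all Dhx9.1241 arrays by a mean of 0.11 (adjusted p = 0.431). Its level was low, at percentile 32.0 of all genes. Hk2, the form that HIF and MYC are known to raise, had a change of -0.05 (interval -0.17 to 0.07, adjusted p = 0.826).

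In the upper part of the pathway, from fructose 6-phosphate to the triose phosphates, 3 of 6 measured genes had a positive and 3 a negative change. Phosphofructokinase is the main control point here, and its muscle form Pfkm was at 9.39, 9.51 and 9.58 with Rluc.713 and 9.67, 9.58 and 9.57 with Dhx9.1241. Its control arrays were lower in the mean but reached into the Dhx9.1241 range, with a change of 0.12 (SE 0.062, adjusted p = 0.489). The liver form Pfkl (-0.05) and the platelet form Pfkp (-0.07, adjusted p = 0.642) went the other way in the mean, Pfkp with groups that did not overlap. The aldolase genes Aldoa and Aldoc had changes of 0.05 and 0.06, Aldoa with groups that did not overlap (adjusted p = 0.79) and Aldoc with overlap. Tpi1, which interconverts the triose phosphates, had a change of -0.08 (interval -0.20 to 0.04).

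In the lower part, from the triose phosphates to pyruvate, the 3 measured genes overlapped between the hairpins. Pkm, the pyruvate kinase gene, was at 13.00, 12.97 and 13.10 with Rluc.713 and 13.10, 13.16 and 13.07 with Dhx9.1241, a change of 0.09 (interval -0.04 to 0.21, adjusted p = 0.61). Its 2 main splice forms are not told apart by this probe set value. Pgk1, the phosphoglycerate kinase gene and a standard HIF target, had a change of -0.01 (interval -0.16 to 0.14), and the neuronal enolase gene Eno2 -0.04.

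Ldha, the lactate dehydrogenase gene that is known as a target of both HIF and MYC, had the smallest change among the members. Its levels were 14.05, 14.06 and 14.09 with Rluc.713 and 14.10, 14.06 and 14.05 with Dhx9.1241, a change of 0.00 (SE 0.045, interval -0.10 to 0.10). These values lie close to the table's highest value of 14.6, and whether this probe set was saturated was not tested. Ldhb, the other main subunit gene, had a change of -0.07. The lactate exporter gene Slc16a3 was at 8.85, 8.61 and 8.68 with Rluc.713 and 8.81, 8.89 and 8.73 with Dhx9.1241, and the groups overlapped (change 0.10, adjusted p = 0.697). Slc16a1, the carrier MCT1, had a change of 0.04 (interval -0.06 to 0.14).

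Pfkfb3 and Pfkfb4 encode the bifunctional enzymes that set fructose-2,6-bisphosphate, an activator of phosphofructokinase, and both are known HIF targets. Pfkfb4 was at 8.24, 8.51 and 8.54 with Rluc.713 and 8.44, 8.49 and 8.42 with Dhx9.1241, a change of 0.02 (interval -0.17 to 0.21). The Dhx9.1241 values of Pfkfb4 lay inside the control range, and Pfkfb3 had a change of 0.01 (interval -0.10 to 0.13).

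The pyruvate dehydrogenase kinases, which phosphorylate pyruvate dehydrogenase and so hold pyruvate back from the mitochondrial citrate cycle, went apart in direction. Pdk3 had the largest positive change of the 35 members: its levels were 10.96, 11.06 and 11.15 with Rluc.713 and 11.29, 11.18 and 11.36 with Dhx9.1241. The lowest Dhx9.1241 array lay just above the highest control, and the change was 0.22 (SE 0.068, interval 0.07 to 0.38, unadjusted p = 0.0106, adjusted p = 0.155). Pdk1, the family member best known as a HIF target, was at 11.11, 11.09 and 11.13 with Rluc.713 and 10.89, 11.00 and 11.02 with Dhx9.1241. All 3 Dhx9.1241 arrays of Pdk1 lay below the controls, with a change of -0.14 (interval -0.26 to -0.02, adjusted p = 0.245). Pdk2 had a change of 0.14 with groups that overlapped (adjusted p = 0.482).

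Of the HIF subunits and the genes that control them, the subunits themselves had changes close to 0. Hif1a, the widely expressed alpha subunit, had a log2 change of 0.01 (interval -0.09 to 0.11), Epas1, the alpha subunit HIF-2 alpha, -0.02 (interval -0.22 to 0.18), and Vhl -0.02 (interval -0.15 to 0.11). HIF alpha is controlled mostly through protein stability, which these arrays do not measure. Egln1, which encodes the main oxygen-sensing prolyl hydroxylase PHD2, was at 10.82, 10.94 and 11.01 with Rluc.713 and 11.09, 11.08 and 11.05 with Dhx9.1241. The Dhx9.1241 arrays of Egln1 were close together and above all controls, with a change of 0.15 (interval 0.02 to 0.28, adjusted p = 0.281). Egln3, a hydroxylase gene that hypoxia is known to raise, had a change of 0.07 (adjusted p = 0.677).

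The hypoxia response targets outside glycolysis held differences in both directions. Vegfa, the vascular growth factor gene, was at 11.44, 11.44 and 11.54 with Rluc.713 and 11.25, 11.36 and 11.17 with Dhx9.1241. All Dhx9.1241 arrays lay below the controls, and the change of -0.21 (SE 0.062, interval -0.35 to -0.07) had the smallest unadjusted p of the members (0.00909, adjusted p = 0.141). Ero1l, an oxidase gene of the endoplasmic reticulum, was at 12.39, 12.42 and 12.44 with Rluc.713 and 12.25, 12.30 and 12.24 with Dhx9.1241, again without overlap. Its change was -0.15 (interval -0.26 to -0.04, adjusted p = 0.158).

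P4ha1, which encodes a catalytic subunit of collagen prolyl 4-hydroxylase, was higher in the mean. Its levels were 10.76, 10.86 and 10.87 with Rluc.713 and 10.94, 11.05 and 11.10 with Dhx9.1241. The groups did not overlap, and the change was 0.20 (SE 0.059, interval 0.06 to 0.33, adjusted p = 0.148). P4ha2, the related subunit gene, had a change of 0.06, the carbonic anhydrase gene Car9 -0.02, Ankrd37 0.04 and the histone demethylase gene Kdm3a -0.01, all with overlapping groups.

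**Figure D2:**
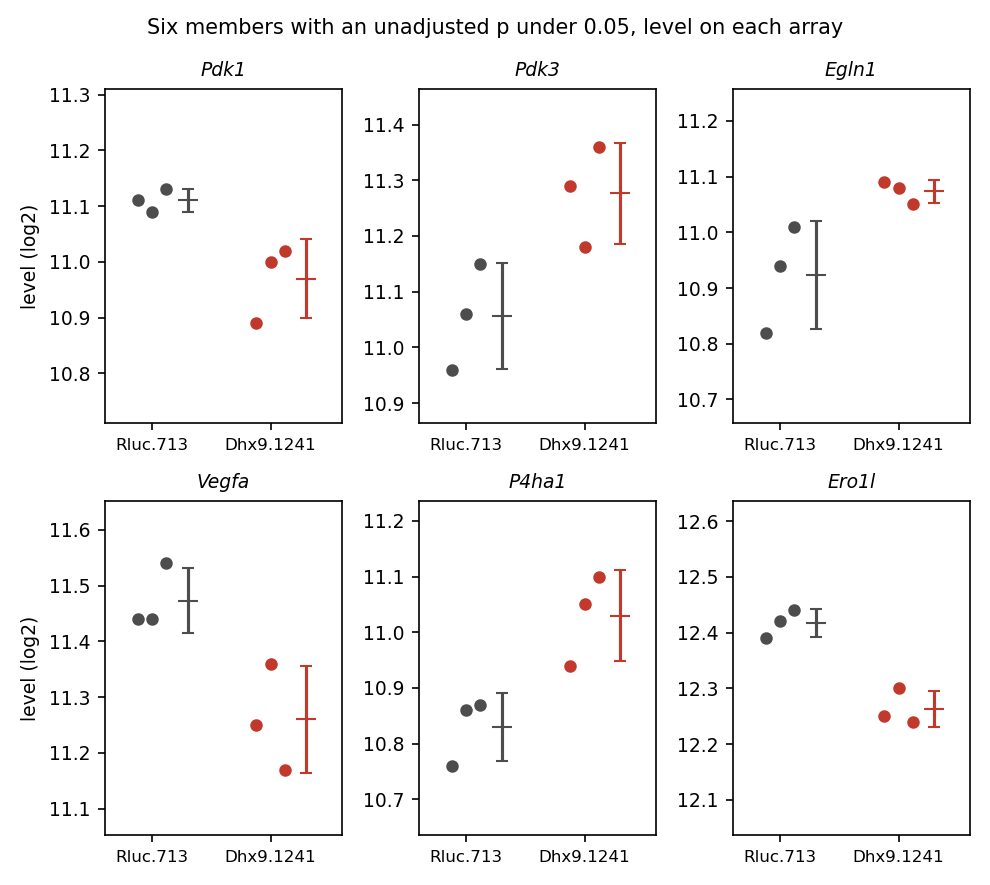
Log2 level on each array (points; Rluc.713 grey, Dhx9.1241 red) of the 6 members with an unadjusted p under 0.05, with the mean and SD of 3 arrays beside them; all panels span the same log2 range. Pdk3, Egln1 and P4ha1 lie above, and Pdk1, Vegfa and Ero1l below, all Rluc.713 arrays, and none passed after adjustment over all genes.

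Of these 6 members, 4 passed under 1 alternative test. With a variance trend and robust estimation in limma, Pdk3 (adjusted p = 0.04) and P4ha1 (0.0448) were called higher and Vegfa (0.0315) and Ero1l (0.0142) lower, in a fit that called 6.06% of all genes. Among the 25 members at or above the median level of all genes, Ero1l was the 1 called (adjusted p = 0.0489), in a fit that called 10.6% of the genes left. All 6 kept their sign under each of the 15 alternatives, with adjusted p-values up to 0.631. With probe-set means, filters on level, a variance trend or replicate numbers as a block, the log2 change stays as it was. The sign could not change under those alternatives.

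Related members were also compared within each array, as the log2 ratio of 2 members, for 13 pairs. Most pairs were isoenzymes of 1 step, and the others were the glucose carriers, the lactate carriers and the HIF alpha subunits. The largest difference between the hairpins was that of Pdk1 over Pdk3, which was 0.37 lower in Dhx9.1241 on the log2 scale (difference -0.37, SD 0.088 with Rluc.713 and 0.114 with Dhx9.1241, n = 3 each). Pdk1 over Pdk2 differed by -0.28 and Hk1 over Hk2 by 0.16, and in these 3 pairs the hairpin groups did not overlap. Each gave an exact two-sided permutation p of 0.1, the smallest that 3 against 3 arrays can give, and 0.433 after Benjamini-Hochberg adjustment over the 13 pairs. Pfkl over Pfkm differed by -0.16 and P4ha1 over P4ha2 by 0.14 with overlap, and the other 8 differences lay between -0.06 and 0.07.

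**Figure D3:**
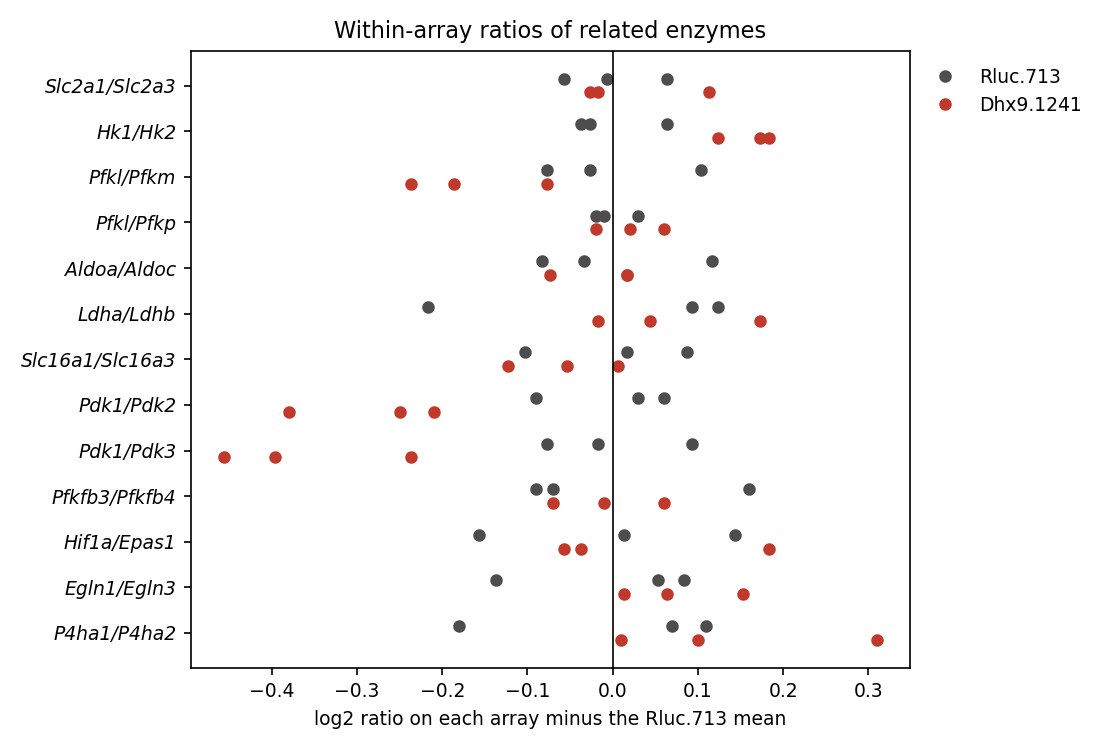
Log2 ratio of 2 related members on each array, minus the Rluc.713 mean of that ratio, for 13 pairs (points; 3 arrays per hairpin). Pdk1/Pdk3 and Pdk1/Pdk2 lie to the left and Hk1/Hk2 to the right of the Rluc.713 arrays.

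The members' log2 changes were set beside those of all genes. The middle 50% of the members lay between -0.04 and 0.08, and the middle 50% of all genes between -0.05 and 0.06. The members stayed between -0.21 and 0.22, while all genes reached from -1.31 to 2.07. Of the 35 members, 25 lay at or above the median level; among these the groups did not overlap for 9 (36%), against 31.5% of all genes at or above that level. Rluc.713 replicate 1 followed the other controls least: over the 35 members, its deviations from the mean of the 6 arrays correlated with those of replicates 2 and 3 at -0.17 and -0.08, against 0.50 between replicates 2 and 3, a description across genes that share the same arrays. Without it no member was called and the members' median was 0.028, beside 0.022 over all genes.

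**Figure D4:**
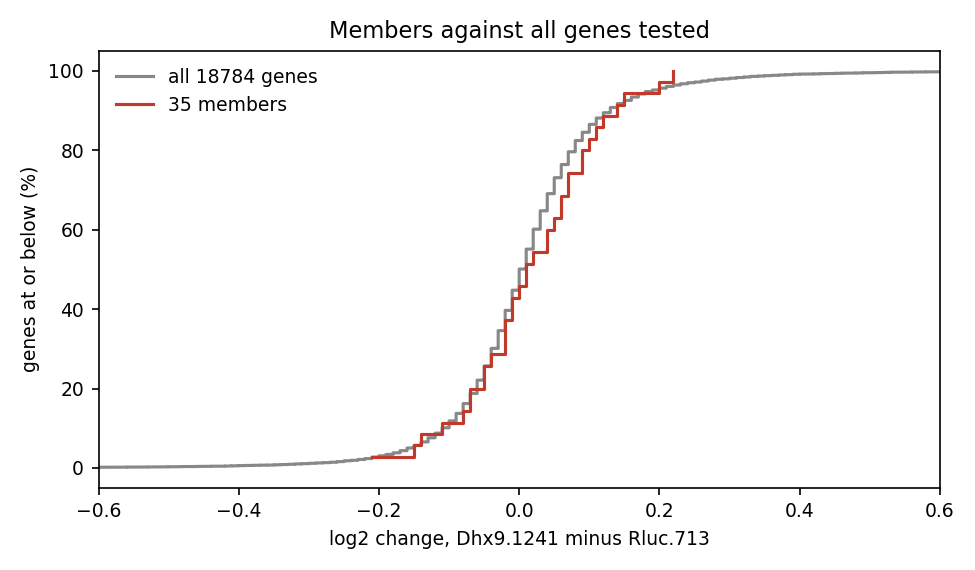
Share of genes (percent, vertical axis) at or below each log2 change (horizontal axis, shown from -0.6 to 0.6) for the 35 members and all 18784 genes. The lines run close together, with medians of 0.012 and 0.005.

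Of the genes of the same pathways outside the members, 5 were called. The calls of 2 of these, Slc2a6 and Pck2, held under all 15 alternatives. Averaging of probe sets, counted among the 15, could hardly alter a call, as each of the 5 genes had 1 probe set. The lists used were 37 measured genes of glycolysis, gluconeogenesis and pyruvate entry, 47 of the HIF pathway and hypoxia response, and 10 of the pentose phosphate pathway. In the first, 1 gene rose and 1 fell, beside 2.07% higher and 1.07% lower among all genes. Slc2a6, a gene of the facilitative glucose carrier family (GLUT6), rose from 9.84, 9.66 and 9.82 with Rluc.713 to 10.34, 10.50 and 10.35 with Dhx9.1241, a 1.54-fold increase (log2 change 0.62, SE 0.069, adjusted p = 0.00317). Pck2, the mitochondrial form of phosphoenolpyruvate carboxykinase, fell from 11.66, 11.68 and 11.64 to 11.26, 11.25 and 11.13, to a level 1.37-fold lower (log2 change -0.45, SE 0.053, adjusted p = 0.004). The list's median change was 0.014.

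Among the 47 other HIF pathway genes, 3 rose and none fell, beside the same 2.07% and 1.07% of all genes, and each of the 3 calls was lost in some of the fits without 1 array. Adm, which encodes the vasodilator peptide adrenomedullin, rose from 8.39, 8.34 and 8.18 to 8.88, 8.96 and 8.64, a 1.43-fold increase (adjusted p = 0.0222). Ndrg1, a stress-induced gene that hypoxia is known to raise, went from 8.92, 8.93 and 8.83 to 9.27, 9.35 and 9.20, a 1.30-fold increase (adjusted p = 0.0128). Angptl4, which encodes an inhibitor of lipoprotein lipase, went from 9.51, 9.72 and 9.64 to 9.96, 9.94 and 9.92, a 1.24-fold increase (adjusted p = 0.0375). For all 3 the Dhx9.1241 arrays lay above every control. Insig2 (log2 change 0.27, adjusted p = 0.0957) and the transcription factor gene Bhlhe40 (0.32, adjusted p = 0.114) did not pass, nor did Eloc, a subunit gene of the VHL complex (-0.19, adjusted p = 0.103). The list's median was 0.013 with 28 of 47 positive (59.6%, against 52.5% of all genes).

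The calls of these 3 genes did not hold in every fit without 1 array. Over all genes, such fits called from 126 higher and 79 lower to 497 and 399, beside 389 and 201 with all arrays. Whether a lost call came from the array left out or from the smaller number of arrays was not tested. Ndrg1 lost its call without Rluc.713 replicate 3 (adjusted p = 0.0522) and without Dhx9.1241 replicate 1 (0.0661) or 2 (0.0576). Adm lost it without Rluc.713 replicate 2 (0.0667) or 3 (0.0801) and without Dhx9.1241 replicate 1 (0.111) or 2 (0.0815). Angptl4 passed in 9 of 15 alternatives and lost its call with arrays centred on their median (0.0973), with replicate numbers as a block (0.101), without Rluc.713 replicate 3 (0.107) and without any 1 Dhx9.1241 array (0.126 to 0.157). The myeloid markers Lyz2, Csf1r, Tyrobp and Fcer1g fell between the same groups, as given above, and their part in the changes of Slc2a6, Pck2, Adm, Ndrg1 and Angptl4 was not tested.

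**Figure D5:**
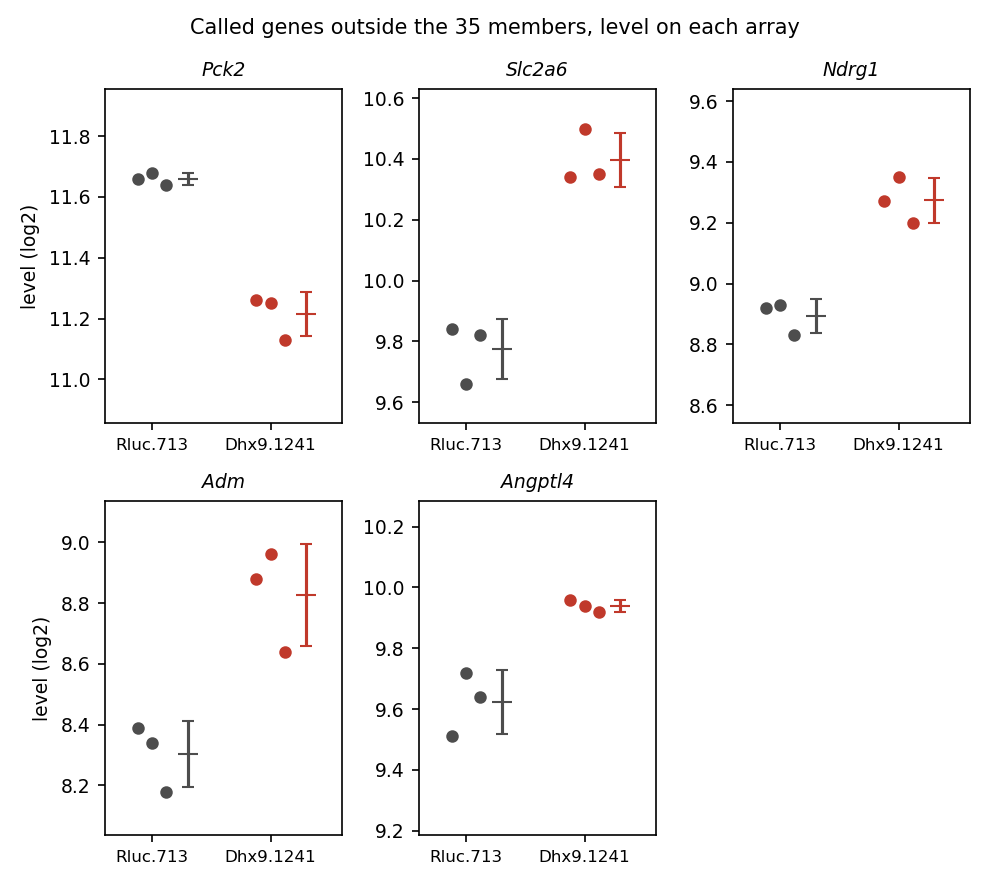
Log2 level on each array (points; Rluc.713 grey, Dhx9.1241 red) of the 5 called genes of the other pathway lists, with the mean and SD of 3 arrays; all panels span the same log2 range. Slc2a6, Ndrg1, Adm and Angptl4 lie above and Pck2 below all Rluc.713 arrays.

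In the pentose phosphate pathway, which branches from glucose 6-phosphate to make NADPH and ribose, the limma test called none of 10 measured genes, and 1 had an unadjusted p under 0.05. Prps2, a gene of phosphoribosyl pyrophosphate synthesis, had the largest change (0.12, adjusted p = 0.272), followed by the transketolase-like gene Tktl1 (-0.11, adjusted p = 0.662). The median of this list was -0.006.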

How the data were processed

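Total RNA from 6 samples was labelled with a 3′ in vitro transcription kit and hybridised to Affymetrix arrays, per the labels' protocols. Deposited values are log2 levels, 1 per probe set and array, made by the authors by RMA, the robust multi-array average named in the submitters' processing notes. Neither its version nor the genome build is given in the sources used here. That the scale is log2 was read from the range of the values (3.97 to 14.6). Of 21212 probe sets, 18786 carried 1 gene symbol in the platform annotation, and the one with the highest mean was kept per gene. Genes were matched by symbol or former name, and a former name was not used where another gene bears it today. No filter on dim genes was applied.

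Groups follow the hairpin in the labels. Dhx9.1241 minus Rluc.713 was fitted over all 18784 genes with limma 3.58.1 in R 4.3.3, two-sided, without covariates, with Benjamini-Hochberg adjustment; called means an adjusted p under 0.05. The fit was tested on simulated data. Values by array were planned for the member with the largest change in each role. They were also planned for up to 3 members with the smallest unadjusted p whose groups did not overlap. Pdk1 and Ero1l, which also had an unadjusted p under 0.05, are given by array outside that plan. Ldha was added after its values were seen. The members and gene lists were chosen with earlier results of these data known. Array number, 3 per group, limits the precision.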

Additional observations from a re-analysis of the deposited data

How the results depend on the processing

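Of 15 alternatives, 13 called no member, as did the limma fit reported above. Averaging of probe sets is among the 13 but could hardly give another answer. Each member had 1 probe set, and only 2 of all genes had over 1. A variance trend with robust estimation called 2 members higher and 2 lower, and keeping genes at or above the median level called 1 lower; the cause was not tested. The fits without 1 array called 0 members in each direction, while their counts over all genes ran from 126 higher and 79 lower without Dhx9.1241 replicate 1 to 497 and 399 without Rluc.713 replicate 1. The labels do not tell if equal replicate numbers pair the samples. The correlation of deviations was -0.27, -0.34 and 0.24 for numbers 1, 2 and 3. These values are taken across genes that share the same arrays, so they cannot decide it. With replicate numbers as a block, 0 members were called, and 172 genes were higher and 92 lower in place of 389 and 201. Over all genes the counts were 669 and 542 with array weights and 250 and 185 with arrays centred on their median, which moved the median of all genes to -0.021 and left 16 of 35 members positive. The Pdk1 over Pdk3 difference lay between -0.43 and -0.32 without 1 array and was -0.37 after cyclic loess.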

Other observations

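Genes of the step that the pyruvate dehydrogenase kinases act on were measured too, in the list of other pathway genes. Pdha1, the catalytic subunit gene that the kinases phosphorylate, was at 11.09, 11.16 and 11.15 with Rluc.713 and 11.34, 11.29 and 11.26 with Dhx9.1241, a mean difference of 0.16 on the log2 scale (interval 0.05 to 0.27, limma adjusted p = 0.155). All Dhx9.1241 arrays of Pdha1 lay above the controls, and it did not pass. The other subunit genes Pdhb and Dlat had changes of -0.02 and -0.09, the phosphatase genes Pdp1 and Pdp2, which undo the phosphorylation, -0.10 and 0.09, the kinase gene Pdk4 -0.09, and the mitochondrial pyruvate carrier gene Mpc1 0.00, none of them called.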
